A study of Homo sapiens with 8 samples.

Results

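Interferon-stimulated genes were described as a group of 40 named members in the human chronic myeloid leukaemia line KCL-22. All 40 were found, each as 1 entry, among the 31402 entries of the deposited expression table, and 39 of them were among the 11843 genes that were tested, those whose FPKM averaged 1 or more. FPKM scales the fragments of a gene by transcript length and by library size, so that levels of different genes can be set side by side. The remaining member, MX1, an antiviral GTPase, was below that mean, at 0.170 in Clone 1 to 1.74 in Clone 4, and is left out of the counts.

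Interferons are cytokines that cells release when they sense foreign nucleic acid. Type I interferons bind the receptor chains IFNAR1 and IFNAR2, the kinases JAK1 and TYK2 then phosphorylate STAT proteins such as STAT2, which joins IRF9 in a complex that binds the interferon-stimulated response element before the start of its target genes. The targets include sensors of viral RNA, enzymes and binding proteins that act on viral RNA, the ubiquitin-like modifier ISG15 and membrane proteins that hinder virus entry or release. Unphosphorylated forms of the same factors can keep part of the programme expressed without added interferon.

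KCL-22 was established from a patient in blast crisis and depends on the BCR-ABL fusion kinase. All cells carried the ClonTracer library of DNA barcodes, and the series asked which expression patterns mark cells that resist BCR-ABL inhibitors. Imatinib and nilotinib bind the catalytic site of the kinase, and GNF-2 is an allosteric inhibitor. Each of 8 libraries was sequenced once. The vehicle population received 0.1% DMSO for 7 days. Selection lasted 27 days for the imatinib population (2.5 µM), 27 days for the nilotinib population (0.3 µM) and 21 days for the GNF-2 population (2.5 µM). Clones 1, 2 and 4 were sorted as single cells from the GNF-2-resistant cells and had not met a catalytic-site inhibitor, and Clone 3 was sorted from the imatinib-resistant cells and had not met an allosteric one. Clones 1 and 2 are labelled resistant to 2.5 µM GNF-2, Clone 3 to 2.5 µM imatinib and 0.3 µM nilotinib, and Clone 4 to all 3 drugs. By resistance the libraries form a GNF-2-resistant group (n = 3, the GNF-2 population with Clones 1 and 2), a catalytic-resistant group (n = 3, the imatinib and nilotinib populations with Clone 3), Clone 4 alone and vehicle alone. Within a group the libraries are not independent replicates, since clones were sorted from the resistant cells of a population in the same group. The catalytic-resistant group also mixes imatinib and nilotinib. Every clone is 1 clone, no label gives replicate cultures, and the p-values below measure only the spread between these libraries.

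Depth was estimated from the smallest steps of FPKM in intronless genes, at 22100000 fragments in the GNF-2 population and 23500000 in Clone 4 to 42600000 in Clone 1. These are rough values. Depth moved with the members' level, which was lowest in the deepest library, Clone 1, and highest in Clone 4 and the GNF-2 population, the shallowest, with the imatinib population (38900000) as an exception, and its part in the results was not tested. Of the myeloid and progenitor markers, KIT and MPO were under 1 FPKM in all 8 libraries, and GATA2 was at 145 to 287. SPI1 was listed at 0 in Clones 3 and 4 and at 7.50 to 29.9 elsewhere. CD34 was at 12.2 in Clone 4 and at 0.378 (vehicle) to 3.08 (GNF-2 population) elsewhere. CD38 was at 0.287 in Clone 3 and at 2.76 to 18.1 elsewhere. ANPEP ran from 14.6 to 78.3, CEBPA from 4.93 to 24.9 and CD33 from 0.157 to 3.35. PTPRC (CD45) was called lower in the clones than in the resistant populations (log2 difference -1.27, SE 0.25, limma adjusted p = 0.0307). In that contrast 7.46% of all genes were called, 684 lower and 199 higher in the clones. Markers of other cell types were summed. The 5 T and NK cell markers gave 73.3 (Clone 2) to 424 (Clone 3), mostly NKG7. The 4 B cell markers gave 41.0 (imatinib population) to 133 (Clone 1), from CD79A and CD79B. The 5 epithelial markers gave 33.7 (Clone 4) to 125.0 (Clone 2), from KRT8 and KRT18, and the 5 fibroblast markers stayed at or under 5.55. The 10 myeloid and progenitor markers gave 244 (Clone 2) to 422 (vehicle). Such sums rest on few genes and can hide single markers. GATA2, CD34 and CD79B (53.3) were highest in Clone 4, and the other markers among the genes tested were not. The part of cell type or state in the results was not tested. In bulk RNA, fewer expressing cells and less RNA per cell cannot be told apart.

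The promoters of the members are described first, and their part in the levels below was not tested. RefSeq windows on GRCh38.p14, from 250 bases before to 50 bases after an annotated start, were matched by gene identifier for 31 of the 40 members. They were searched for GAAANNGAAA, the core of the interferon-stimulated response element, on both strands, where the other strand reads TTTCNNTTTC, with overlapping matches counted. It was present in a window of 21 of the 31 members (67.7%), against 1195 of 27305 genes in the table (4.38%) and 3.57% of all windows. At least 2 matches in 1 window were found for 13 members and for 85 genes in all (0.311%). The matched members without it were CMPK2, DDX58, HERC6, IFI35, IRF9, OAS1, SAMD9L, STAT2, UBE2L6 and XAF1, which says only that these letters are not in these windows.

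The 200 bases before the start are printed for 6 members that hold at least 2 matches and that carry the results below, 5′ to 3′ on the gene's strand, with each match in capitals. They are IFI27 at chr14:94110536-94110735 (plus strand), IFI44L at chr1:78620248-78620447 (plus strand), IFI6 at chr1:27672193-27672392 (minus strand), OAS3 at chr12:112938274-112938473 (plus strand), IFIT1 at chr10:89392423-89392622 (plus strand) and ISG15 at chr1:1013297-1013496 (plus strand).
IFI27: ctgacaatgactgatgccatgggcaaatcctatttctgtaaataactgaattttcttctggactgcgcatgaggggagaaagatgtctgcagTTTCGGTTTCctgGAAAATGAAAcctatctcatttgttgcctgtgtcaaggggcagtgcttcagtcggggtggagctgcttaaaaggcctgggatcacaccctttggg
IFI44L: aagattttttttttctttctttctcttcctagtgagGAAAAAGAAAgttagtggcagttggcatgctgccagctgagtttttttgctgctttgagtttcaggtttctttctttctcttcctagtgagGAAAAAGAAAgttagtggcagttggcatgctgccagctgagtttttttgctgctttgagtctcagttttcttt
IFI6: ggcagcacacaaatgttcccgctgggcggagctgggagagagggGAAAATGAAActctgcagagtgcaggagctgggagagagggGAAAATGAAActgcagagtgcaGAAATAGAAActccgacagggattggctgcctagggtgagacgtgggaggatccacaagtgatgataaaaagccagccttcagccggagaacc
OAS3: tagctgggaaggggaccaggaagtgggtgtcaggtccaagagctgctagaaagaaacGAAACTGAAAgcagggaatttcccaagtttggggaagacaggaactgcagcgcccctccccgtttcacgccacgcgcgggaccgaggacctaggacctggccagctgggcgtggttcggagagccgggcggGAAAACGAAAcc
IFIT1: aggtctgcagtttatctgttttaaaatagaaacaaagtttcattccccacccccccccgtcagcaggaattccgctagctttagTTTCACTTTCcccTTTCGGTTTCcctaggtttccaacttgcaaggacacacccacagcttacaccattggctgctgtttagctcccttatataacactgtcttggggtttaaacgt
ISG15: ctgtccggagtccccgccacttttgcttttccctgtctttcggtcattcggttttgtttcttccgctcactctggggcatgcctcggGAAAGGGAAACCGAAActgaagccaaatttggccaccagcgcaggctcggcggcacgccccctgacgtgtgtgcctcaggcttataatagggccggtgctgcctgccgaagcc
IFI27 holds 1 match on each strand, and IFIT1 holds both of its matches on the opposite strand. In ISG15 both matches overlap and appear as 1 run of capitals. IFI44L carries the same 10 letters in 2 places, within a stretch of sequence that is repeated, and IFI6 holds 3 matches. A match is a description of the letters and not a bound site.

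**Figure D1:**
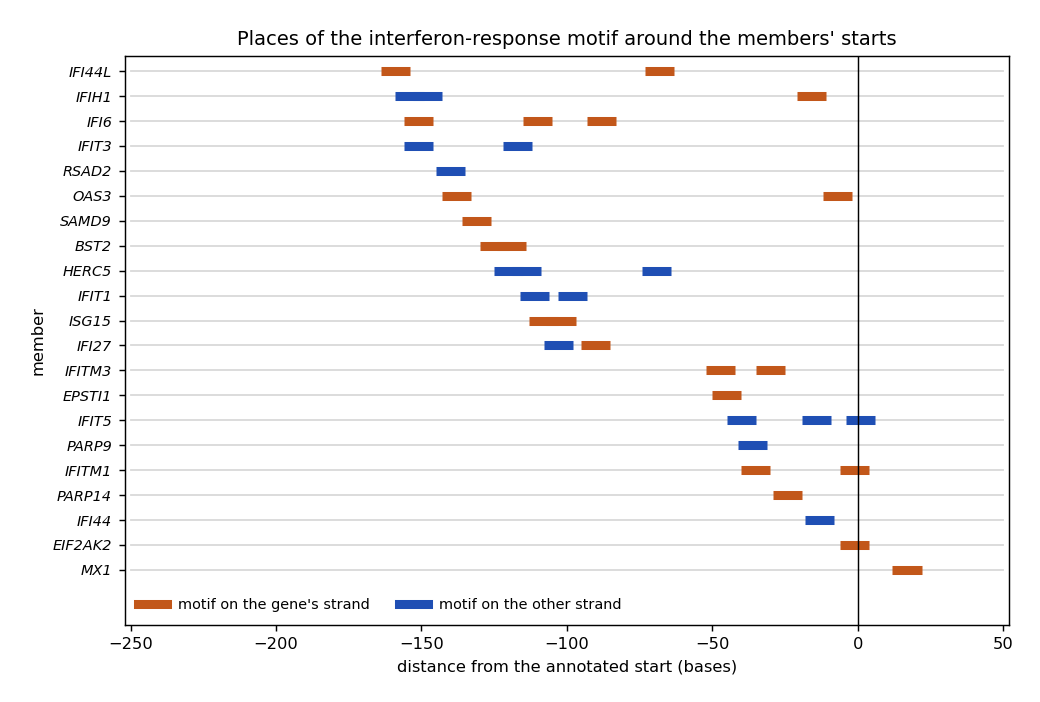
Places of the 10-base motif in the windows of the 21 members that hold it, by distance from the annotated start in bases (horizontal axis), with 1 row per member and, where a member has several starts, the window with most matches. Bars show matches on the gene's strand (orange) or on the other strand (blue), overlapping matches are drawn joined, and 37 of 38 matches begin before the start, the exception being MX1.

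Among tested members, 17 of the 20 with the motif and 6 of the 10 without it were at least 2-fold higher in Clone 4 than in vehicle, beside 9.66% of all genes tested. The median difference in log2(FPKM + 1) between Clone 4 and vehicle was 1.92 with the motif and 1.57 without it. For Clone 1 against vehicle it was -1.23 with the motif and -1.24 without it.

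Across the 8 libraries the interferon-stimulated genes were lowest in Clone 1 and highest in Clone 4, and both clones came from the same GNF-2-resistant cells. Their mean log2(FPKM + 1) was 3.09 in Clone 1, 4.45 in the nilotinib population, 4.54 in vehicle, 4.57 in Clone 3, 4.57 in Clone 2, 4.97 in the imatinib population, 5.18 in the GNF-2 population and 6.19 in Clone 4. Their median on the same scale ran from 2.75 in Clone 1 to 5.80 in Clone 4. The median over all genes tested moved far less, from 3.68 in Clone 1 to 3.89 in the GNF-2 population. The median member had 5.72 FPKM in Clone 1, 17.7 in vehicle and 54.8 in Clone 4. The nilotinib population, vehicle, Clone 2 and Clone 3 were near each other, and with 1 library each their order has no replicate check.

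Clone 4 held the highest value of 33 of 39 members (18.7% of all genes tested) and Clone 1 the lowest of 37 (14.4% of all genes). Both were true of 31 members, against 2.03% of all genes tested. These counts were made after the values were seen. The 6 members not highest in Clone 4 were STAT2, IFI44, XAF1, DHX58 and SAMD9L, all highest in the GNF-2 population, and IRF9, highest in the imatinib population. CMPK2 and IFITM3 were lowest in vehicle rather than in Clone 1.

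**Figure D2:**
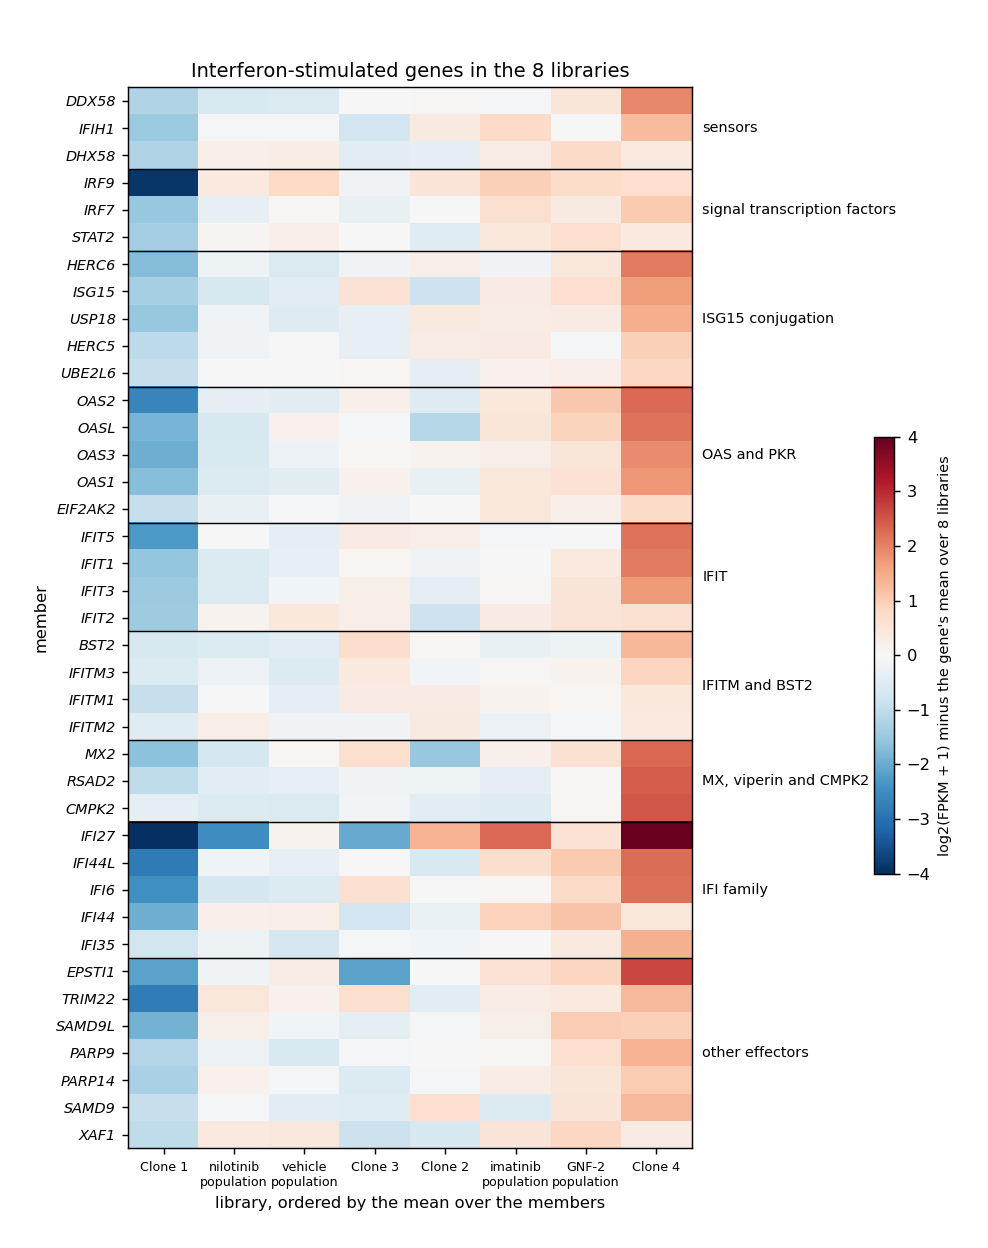
Log2(FPKM + 1) of the 39 tested members (rows, grouped by role) in 8 libraries (columns, ordered by the mean over members), as the difference from each gene's mean, with colours saturating at 4 in both directions. Clone 1 holds the lowest value of 37 members and Clone 4 the highest of 33, and the Clone 1 cells of IRF9 and IFIT5 are values listed at 0.

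The members followed each other over the libraries. The Pearson correlation of a member with the mean of the other members, over 8 libraries that all genes share, had a median of 0.89 and ran from 0.61 for XAF1, a pro-apoptotic factor, to 0.98 for OAS3. It was at least 0.9 for 19 of the 39. The weakest after XAF1 were IFITM2 (0.63), BST2 (0.70) and CMPK2 (0.71), so a shared profile described some members better than others. These values describe 1 set of libraries in which Clones 1 and 4 are the extremes.

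All 3 sensors of viral RNA were lowest in Clone 1, and DDX58 and IFIH1 were highest in Clone 4. DDX58 (RIG-I) was at 3.12 FPKM in Clone 1, 5.22 to 12.3 in the 4 populations, 8.88 in Clone 2, 8.41 in Clone 3 and 35.2 in Clone 4. IFIH1 (MDA5) ran from 12.6 in Clone 1 to 89.9 in Clone 4 and reached 63.3 in the imatinib population. DHX58 (LGP2), which modulates the other sensors, was at 6.92 in Clone 4, close to the 6.37 of vehicle, and at 1.60 in Clone 1.

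Among the transcription factors of the response, Clone 1 held the lowest value of all 3, while Clone 4 lay within the range of the populations for STAT2 and IRF9. STAT2 was at 28.1, 32.1, 25.1 and 37.8 FPKM in the vehicle, imatinib, nilotinib and GNF-2 populations, 8.12 in Clone 1, 16.2 in Clone 2, 22.8 in Clone 3 and 30.4 in Clone 4. IRF9, its DNA-binding partner, was at 25.1, 27.6, 18.6 and 23.5 in the vehicle, imatinib, nilotinib and GNF-2 populations, 20.2 in Clone 2, 12.5 in Clone 3 and 22.6 in Clone 4, and was listed at 0 in Clone 1. The IRF9 entry lies inside that of RNF31 and shares its end, and RNF31 was at 16.9 in Clone 1 and 13.0 to 23.0 over all libraries, so how fragments were shared between the entries was not tested. IRF7, which amplifies interferon production, was at 11.3 in Clone 1, 27.1 to 54.1 in the populations, 34.6 in Clone 2, 27.9 in Clone 3 and 72.1 in Clone 4.

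ISG15 and the enzymes that attach and remove it all lay lowest in Clone 1 and highest in Clone 4. ISG15 itself was at 87.0, 148, 76.3 and 189 FPKM in the vehicle, imatinib, nilotinib and GNF-2 populations, 46.4 in Clone 1, 66.5 in Clone 2, 179 in Clone 3 and 379 in Clone 4. HERC6, a relative of the ISG15 ligase HERC5, was at 3.25, 4.77, 4.46 and 7.69 in the vehicle, imatinib, nilotinib and GNF-2 populations, 0.887 in Clone 1, 6.46 in Clone 2, 4.77 in Clone 3 and 25.3 in Clone 4. The ISG15 protease USP18, which also holds back receptor signalling, ran from 5.46 to 49.5, the ligase HERC5 from 5.36 to 24.5 and the conjugating enzyme UBE2L6 from 37.4 to 129.

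The OAS enzymes make the signal that activates RNase L. OAS2 was at 24.9, 46.9, 26.8 and 74.6 FPKM in the vehicle, imatinib, nilotinib and GNF-2 populations, 4.72 in Clone 1, 23.7 in Clone 2, 40.2 in Clone 3 and 171 in Clone 4, which is 36.1-fold between the extreme clones. OAS3 was at 26.5, 37.4, 20.0 and 43.6 in the vehicle, imatinib, nilotinib and GNF-2 populations and at 7.30, 34.6, 31.9 and 117 in Clones 1 to 4. OASL, a family member without that activity, was at 6.77, 8.58, 3.41 and 11.7 in the same order of populations and at 0.893, 2.12, 5.44 and 30.0 in Clones 1 to 4. In all of these Clone 4 stood above and Clone 1 below every other library. OAS1 ran from 8.24 to 100.5 and the kinase EIF2AK2 (PKR), which halts translation on double-stranded RNA, from 15.5 to 52.5.

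IFIT proteins bind viral RNA ends. IFIT5 was at 2.73, 3.59, 3.99 and 3.98 FPKM in the vehicle, imatinib, nilotinib and GNF-2 populations, 4.72 in Clone 2, 5.12 in Clone 3 and 21.1 in Clone 4, and was listed at 0 in Clone 1. IFIT1 ran from 5.72 in Clone 1 to 80.8 in Clone 4 and IFIT3 from 5.67 to 58.5. IFIT2, in the same gene cluster, differed from them in Clone 4, where it was at 11.3 beside 7.97 to 10.5 in the populations, while it too was lowest in Clone 1 (2.04).

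The 3 IFITM proteins, which hinder virus entry at membranes, were the members with the highest mean FPKM and the narrowest ranges among those tested. IFITM1 was at 421, 594, 535 and 566 FPKM in the vehicle, imatinib, nilotinib and GNF-2 populations and at 284, 676, 682 and 722 in Clones 1 to 4. IFITM2 was at 337, 314, 451 and 360 in those populations and at 264, 476, 339 and 490 in Clones 1 to 4. IFITM3 was at 576, 869, 723 and 938 and at 585, 780, 1122 and 1536. Their highest and lowest libraries were 2.55-fold, 1.86-fold and 2.67-fold apart, and for IFITM2 the GNF-2-resistant and catalytic-resistant groups differed by less than their spread (366.6 ± 106 and 368 ± 73.0, SD, n = 3 each). BST2 (tetherin), which holds budding virus at the membrane, ran from 130 in Clone 1 to 507 in Clone 4, with 333 in Clone 3.

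MX2, CMPK2 and RSAD2 separated Clone 4 in different ways. The mitochondrial nucleotide kinase CMPK2 was at 18.7, 19.8, 19.3 and 30.5 FPKM in the vehicle, imatinib, nilotinib and GNF-2 populations, 21.8 in Clone 1, 21.0 in Clone 2, 26.2 in Clone 3 and 165 in Clone 4. Viperin (RSAD2), which makes a chain-terminating nucleotide from the product of CMPK2, was at 17.7, 17.2, 16.8 and 23.2 in the populations and at 10.8, 20.0, 20.3 and 126 in Clones 1 to 4. Both genes are neighbours on chromosome 2, at chr2:6980502-7005936 and chr2:7017795-7038363 on GRCh37, and in Clone 4 they were 5.43-fold and 5.42-fold above the next library. Clone 1 was not low for CMPK2. RNF144A, beyond them, was at 11.1 in Clone 4 and 13.9 to 20.5 elsewhere. The GTPase MX2 was at 3.79, 4.21, 1.76 and 5.83 in the populations and at 0.456, 0.584, 6.04 and 20.9 in Clones 1 to 4, so that Clones 1 and 2 were both low.

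IFI27 and IFI44L had the widest log2 ranges of all members. IFI27, a mitochondrial and nuclear envelope protein, was at 82.5, 366, 12.6 and 113 FPKM in the vehicle, imatinib, nilotinib and GNF-2 populations, 2.22 in Clone 1, 197 in Clone 2, 18.0 in Clone 3 and 1957 in Clone 4. Between Clone 1 and Clone 4 this is 882-fold, at chr14:94577078-94583033 on GRCh37, while its neighbours were level: IFI27L1 was at 14.5 to 21.6, IFI27L2 at 55.4 to 78.2 and DDX24 at 48.2 to 66.0. Within the catalytic-resistant group IFI27 was 132 ± 203 (SD, n = 3), since the imatinib population was high and the nilotinib population and Clone 3 were low. IFI6, an inhibitor of apoptosis at mitochondria, was at 149, 228, 136 and 373 in the populations and at 38.7, 213, 340 and 1009 in Clones 1 to 4. IFI44L was at 7.35, 16.2, 8.33 and 20.9 in the populations and at 0.485, 5.95, 9.48 and 48.6 in Clones 1 to 4. Its adjacent relative IFI44 did not share the high value of Clone 4, being at 56.6 there, 91.9 in the GNF-2 population and 9.78 in Clone 1. IFI35 ran from 11.4 in Clone 1 to 54.8 in Clone 4.

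Of the other effectors, EPSTI1 and TRIM22 had the widest ranges. EPSTI1 was at 9.76, 12.2, 6.89 and 14.7 FPKM in the vehicle, imatinib, nilotinib and GNF-2 populations and at 0.986, 7.73, 1.00 and 54.5 in Clones 1 to 4, so Clone 3 was as low as Clone 1. The antiviral ubiquitin ligase TRIM22 was at 14.4, 16.0, 17.8 and 16.9 in the populations and at 0.967, 9.15, 20.7 and 33.0 in Clones 1 to 4. XAF1 was below every population in all 4 clones, at 3.17, 4.49, 3.66 and 9.76 in Clones 1 to 4 and 10.04 to 14.2 in the populations. The antiviral factors SAMD9L and SAMD9 and the ADP-ribosyltransferase family members PARP9 and PARP14 ran from 0.870 to 13.1, 1.49 to 10.5, 7.13 to 47.4 and 12.1 to 64.9, each lowest in Clone 1.

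**Figure D3:**
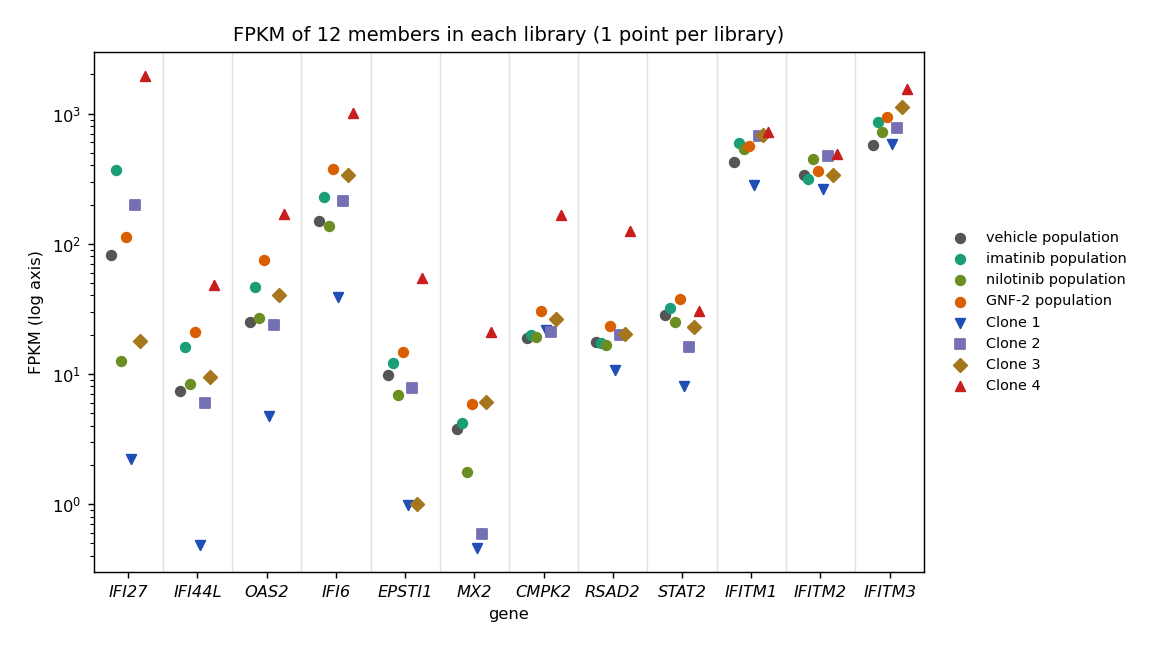
FPKM (log axis) of 12 members in each of the 8 libraries, 1 point per library, without error bars because each library was sequenced once. Clone 4 is apart from all others for CMPK2 (165 against 18.7 to 30.5) and RSAD2, Clone 1 is lowest for IFI27, OAS2 and STAT2, and the 3 IFITM genes spread least.

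Each resistant library was set against the vehicle population, with a member counted where it was at least 2-fold apart and at least 5 FPKM in the higher library. Drug, length of culture and, for the clones, single-cell sorting differ from vehicle together and cannot be told apart. No length of culture is given for the clones. Among the populations the GNF-2 population had most members raised and none lowered. It had 11 of 39 higher (4.46% of all genes) and 0 lower (3.12% of all genes), with a median difference of 0.58 in log2(FPKM + 1) beside 0.12 over all genes. The 11 were ISG15, IFI6, IFI44L, PARP9, HERC6, SAMD9, SAMD9L, DDX58, OAS1, OAS2 and IFI35. In the imatinib population 2 members, IFI44L and IFI27, were higher (0.979% of all genes) and 0 were lower (2.01%), with a median of 0.34. The nilotinib population had 0 higher (2.65%) and only IFI27 lower (1.93%), with a median of -0.066. Of the 4 populations, the GNF-2 population held the highest value of 29 members, beside 39.0% of all genes tested. The 7 comparisons share the vehicle library and are given side by side.

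Clones 1 and 4 differed more from vehicle than the populations did, and in opposite directions. Clone 4 had 29 of 39 members higher (9.66% of all genes) and 0 lower (10.6%), with a median of 1.82 beside 0.0021 over all genes. The 10 not counted as higher were IFI44, EIF2AK2, IFIT2, UBE2L6, IFITM1, IFITM2, STAT2, IRF9, XAF1 and DHX58. Clone 1 had 0 members higher (5.71%) and 23 lower (9.76%), with a median of -1.34 beside -0.043 over all genes, and IRF9, listed at 0, is among the 23. Clone 2 had SAMD9 and IFI27 higher (7.51%) and IFIT2, OASL and XAF1 lower (8.3%), with a median of 0.10. Clone 3 had ISG15, IFI6 and BST2 higher (4.48%) and IFI44, EPSTI1, IRF9, IFI27 and XAF1 lower (7.95%), with a median of 0.19. The shares for Clones 2 and 3 are near those of all genes.

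**Figure D4:**
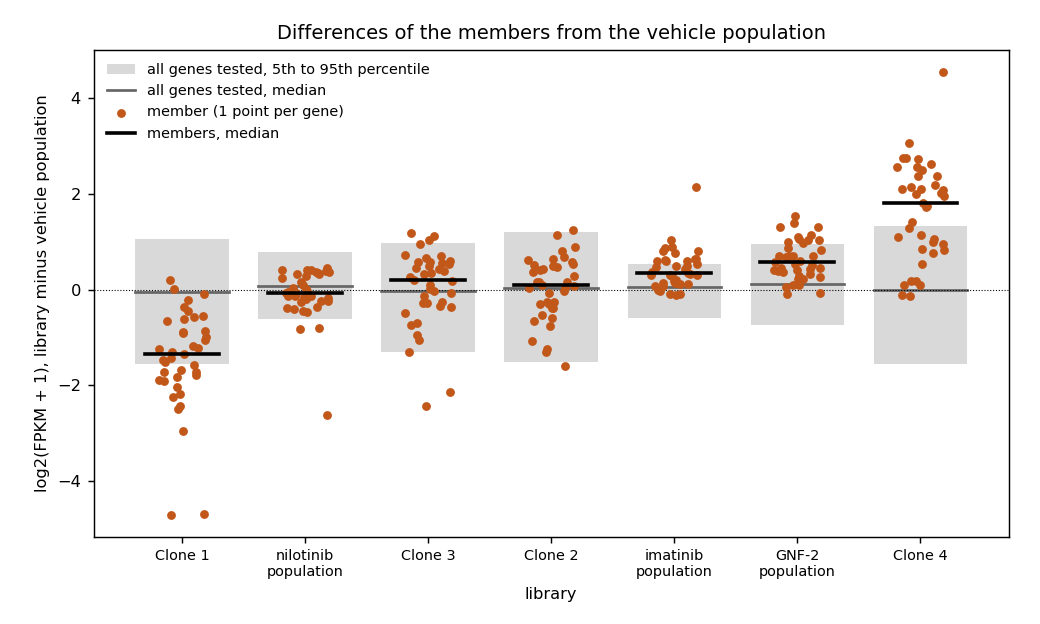
Differences in log2(FPKM + 1) from the vehicle population for the 39 tested members (orange points, black bar for their median) in 7 libraries, over the 5th to 95th percentile (grey) and median (grey bar) of all 11843 genes tested. The members' medians are -1.34 in Clone 1, 0.58 in the GNF-2 population and 1.82 in Clone 4, and the other 4 lie between -0.066 and 0.34.

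Against the population each clone was sorted from, Clones 1 and 4 again lay on opposite sides. Clone 4 had 22 members at least 2-fold higher than the GNF-2 population (3.45% of all genes) and 0 lower (7.82%), with a median of 1.05. Clone 1 had 0 higher (1.9%) and 33 lower (7.87%), with a median of -1.92, and every one of the 39 was below the GNF-2 population. Clone 2 had 0 higher (3.74%) and 11 lower (7.57%), with a median of -0.54. Set against the imatinib population, Clone 3 had only BST2 higher (3.79%) and IFI44, IFIH1, EPSTI1, IRF9, IFI27 and XAF1 lower (6.99%), with a median of -0.11.

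No member was called between the resistance groups, and the GNF-2-resistant group holds both Clone 1 and the GNF-2 population. At a Benjamini-Hochberg adjusted p under 0.05 over all genes, 0 of 39 members were called for GNF-2-resistant against catalytic-resistant (0.0338% of all genes), and 0 had an unadjusted p under 0.05 (4.87% of all genes). The median member was 0.33 lower on the log2 scale in the GNF-2-resistant group, and 35 of 39 were lower. TRIM22, at 8.99 ± 7.95 against 18.1 ± 2.37 FPKM (SD, n = 3 each), had the lowest p of the members, with a log2 difference of -1.42 (SE 0.76, limma adjusted p = 0.846). IFIT2 was next, at 5.35 ± 4.51 against 8.62 ± 0.582 (log2 difference -0.83, SE 0.47, limma adjusted p = 0.846). Without Clone 1 the median over members was 0.19 higher in the GNF-2-resistant group, with 30 of 39 higher and still 0 called. With clone or population as a covariate it was -0.13, with 24 of 39 lower.

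No member was called for either group against vehicle. For GNF-2-resistant against vehicle 0 of 39 were called (0.0929% of all genes) and 0 had an unadjusted p under 0.05 (11.1% of all genes), with a median of -0.22. Without Clone 1 that median was 0.35, with 5 members at an unadjusted p under 0.05 (7.69% of all genes), and it was 0.23 with clone or population as a covariate. For catalytic-resistant against vehicle 0 of 39 were called (0.0338% of all genes), 0 had an unadjusted p under 0.05 (2.69% of all genes), and the median was 0.11, or 0.29 with clone or population as a covariate. Vehicle is a single library assumed to vary like the others.

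Clone 4 was tested in the same model after its values had been seen, again as 1 library assumed to vary like the replicated groups. Against vehicle, limma called 1 member of 39, CMPK2, higher (0.177% of all genes), with a log2 difference of 3.08 (SE 0.35, adjusted p = 0.0406). CMPK2 was also the 1 member called against the GNF-2-resistant group (0.127% of all genes; 2.73, SE 0.29, limma adjusted p = 0.0393) and against the catalytic-resistant group (0.144% of all genes; 2.88, SE 0.29, limma adjusted p = 0.0279). All 39 members were higher than the mean of either resistant group, with medians of 1.62 and 1.51. RSAD2 was close in size at 2.76 against vehicle (SE 0.49) but did not pass (limma adjusted p = 0.182). An unadjusted p under 0.05 was found for 9, 18 and 10 of the 39 members in these contrasts, beside 16.5%, 6.84% and 11.1% of all genes tested. The CMPK2 calls were lost in all 3 contrasts when only genes above 0 in every library were kept, with clone or population as a covariate, and without the imatinib or the nilotinib population. They were also lost against vehicle without Clone 1, 2 or 3 (limma adjusted p = 0.104, 0.0747 and 0.0671), against the GNF-2-resistant group without Clone 1 or 2 (0.129 and 0.0997), and against the catalytic-resistant group without Clone 1 (0.0756), where RSAD2 was called instead (2.73, SE 0.22, limma adjusted p = 0.0335).

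The clones as a kind were then compared with the 3 resistant populations. None of 39 members was called by limma, while 7.46% of all genes were. XAF1 had the lowest p, with a log2 difference of -1.12 (SE 0.33, limma adjusted p = 0.0773), followed by IFI44 at -1.38 (SE 0.53, limma adjusted p = 0.147) and DHX58 at -0.83 (SE 0.35, limma adjusted p = 0.182), and these were the 3 members with an unadjusted p under 0.05, which 27.1% of all genes had. Without Clone 4 XAF1 was called lower (-1.42, SE 0.18, limma adjusted p = 0.0140), and it was called with the resistance group as a covariate (-1.49, SE 0.19, limma adjusted p = 0.0299). With the population of origin as a block XAF1 was not called (-1.32, SE 0.41, limma adjusted p = 0.232), and 0 members were. The members' median was -0.16 with all libraries, -0.39 with that block, 0.27 without Clone 1 and -0.64 without Clone 4, so 1 clone decides its sign.

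Of the upstream parts of the pathway, the type I receptor chains and their kinases were 1.34-fold (JAK1) to 2.17-fold (TYK2) apart between their extreme libraries. None of the 21 interferon genes found in the table exceeded 0.405 FPKM, the value of IL29 (IFNL1) in the nilotinib population. Of them 14 were listed at 0 in every library, and IFNB1 was at 0.0605 in Clone 1 to 0.234 in the imatinib population. The receptor chain IFNAR1 was at 16.0 (imatinib population) to 22.2 (vehicle) and IFNAR2 at 21.5 (Clone 2) to 39.1 (nilotinib population). The kinase JAK1 was at 23.9 (Clone 4) to 32.1 (Clone 2) and TYK2 at 9.95 (Clone 1) to 21.5 (vehicle). Of the 10 receptor and JAK-STAT genes tested, 2 were at least 2-fold lower in Clone 4 than in vehicle, beside 10.6% of all genes. They were IFNGR1 (12.3 against 32.3) and IL10RB (19.3 against 48.2). In Clone 1 0 were at least 2-fold higher (5.71% of all genes), and TYK2 was among those lower (9.76% of all genes). STAT3 ran from 29.9 to 63.9.

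Of 10 sensing genes tested outside the members, 0 were 2-fold apart from vehicle in either Clone 4 or Clone 1. Over all genes tested, 9.66% were higher and 10.6% lower in Clone 4, and 5.71% and 9.76% in Clone 1. At such shares, lists of 9 or 10 genes are too short to show a difference from all genes. The widest among them were AIM2 (5.67 to 19.2), IFI16 (81.9 in Clone 1 to 165 in Clone 4), MB21D1 (cGAS, 21.4 to 43.5) and IKBKE (6.26 to 13.1). Of 9 genes listed as inhibitors, 0 were higher and 1 lower in Clone 4, and 0 were higher and 2 lower in Clone 1. The list also holds ISG20, an interferon-induced gene rather than an inhibitor, at 21.6 in vehicle, 13.4 in Clone 1 and 22.1 in Clone 4. SOCS1, which blocks JAK kinases, was the inhibitor lower in Clone 4, at 47.6 there and 124 in vehicle. It was at 59.9, 80.9 and 35.8 in the imatinib, nilotinib and GNF-2 populations. In Clones 1, 2 and 3 it was at 13.6, 10.9 and 121, and its order over the libraries was unlike that of the members. The phosphatase PTPN6 ran from 10.3 (Clone 3) to 97.6 (Clone 1), SOCS3 from 5.74 (imatinib population) to 28.4 (vehicle) and TRIM21 from 4.58 (Clone 1) to 16.1 (Clone 4).

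A further list of 36 interferon-induced genes that are not members had the same extreme clones. Like the members, it was chosen with earlier results of these data known, so it is no independent check of them. In Clone 4 16 of the 36 were at least 2-fold higher than vehicle (9.66% of all genes) and 0 lower (10.6%), with a median of 0.96, and in Clone 1 0 were higher (5.71%) and 7 lower (9.76%), with a median of -0.32. Clone 4 was highest for 25 (18.7% of all genes) and Clone 1 lowest for 25 (14.4%). The widest were LGALS9 (0.856 in Clone 1, 12.8 in Clone 4), SAMHD1 (1.81 and 15.9), DDX60 (1.63 and 9.56, with 13.9 in the GNF-2 population) and PSMB9 (11.3 and 39.5, with 58.3 in the imatinib population). Of 9 genes tested that are known mainly for induction by interferon-gamma, 2 were higher (9.66% of all genes) and 2 lower (10.6%) in Clone 4. In Clone 1 0 of these were higher (5.71%) and 3 lower (9.76%). GBP5 was at 7.91 in Clone 1 and 18.9 in Clone 4 beside 33.6 in vehicle, GBP1 at 0.423, 6.94 and 4.77, and CXCL11 at 1.62, 5.52 and 4.15. GBP2 was the 1 gene of these lists called in a tested contrast, lower in the clones than in the resistant populations (log2 difference -1.68, SE 0.24, limma adjusted p = 0.0104). In that contrast 7.46% of all genes were called, most of them lower.

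**Figure D5:**
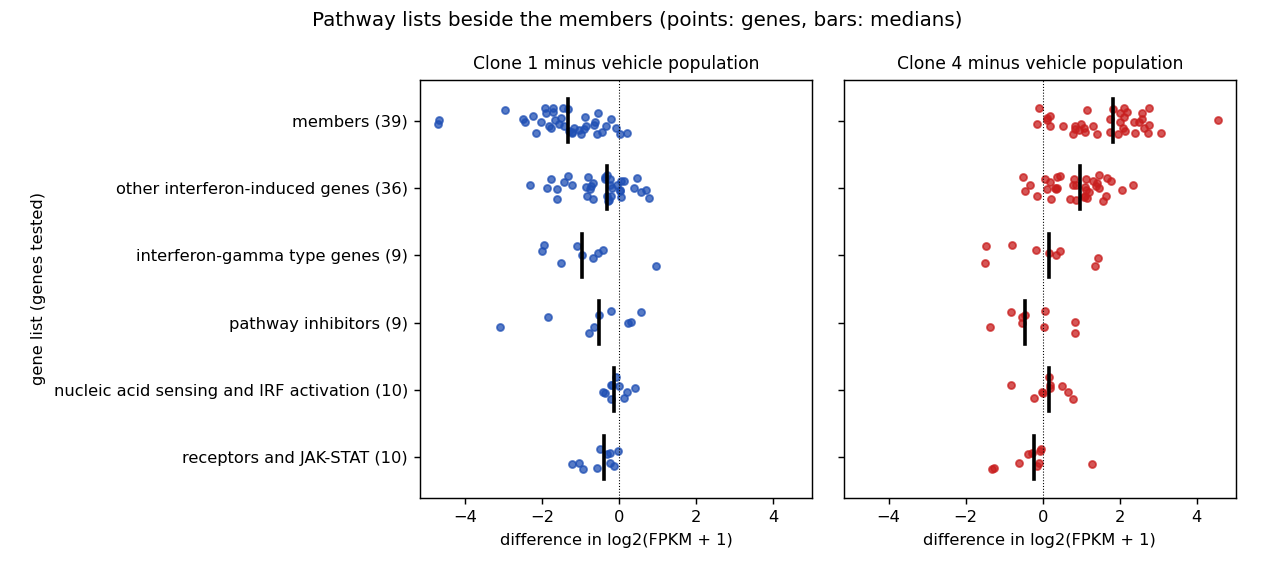
Differences in log2(FPKM + 1) from the vehicle population for Clone 1 (left, blue) and Clone 4 (right, red), 1 point per tested gene, for 5 pathway lists and the 39 members, with black bars for medians. Members have medians of -1.34 and 1.82 and the other interferon-induced genes of -0.32 and 0.96, while the receptor list has medians of -0.41 and -0.22 and the sensing list of -0.13 and 0.17.

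Genes outside the members were ranked by their correlation with the mean over members across the 8 libraries, among the 9151 genes whose FPKM averaged 5 or more. Of the top 10 outside, those named here are MLL2, ADAR, C19orf66, TRIM21, TCTEX1D1, PPIP5K1, BLZF1 and SLC39A10, with coefficients from 0.98 to 0.95. ADAR, the RNA-editing enzyme, was at 70.8 in Clone 1 and 161 in Clone 4, and C19orf66 at 3.53 and 14.05. The histone methyltransferase MLL2 ran only from 10.5 to 16.3, so a high coefficient went with both wide and narrow ranges. With all genes ranked together, 24 of the first 60 were members. In all, 48 genes (0.525%) reached 0.9, 19 of them members of the 38 compared. Each member is itself part of the mean it was ranked against, which raises its coefficient. These counts therefore do not set members and other genes on equal terms.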

How the data were processed

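Total RNA of 8 KCL-22 libraries was sequenced. The authors deposited FPKM, with 1 value for each gene in each library. TopHat 1.3, Cufflinks 1.3 and the build GRCh37 are named in the submitters' processing notes. The header names no unit, so it was inferred from Cufflinks and the range of values (sums of 493644 to 579873 per library over entries with all values). No read counts were used. A value listed at 0 can be a failed estimate, and 401 of the 11843 tested genes had one.

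The 40 members and all lists were chosen with earlier results of these data known. Of 31402 entries, 70 lacked a value and were left out. Values were taken as log2(FPKM + 1). With limma 3.58.1 (R 4.3.3; lmFit, eBayes with a variance trend) the model had 1 mean per resistance group over 8 libraries (4 residual degrees of freedom), or 1 mean each for vehicle, resistant populations and clones (5), for genes averaging 1 FPKM or more. Two-sided p-values were adjusted by Benjamini-Hochberg over all genes tested, at a threshold of 0.05. Fold changes on this scale understate those of low genes. Single libraries had no test: a call was 2-fold with 5 FPKM or more in the higher library. The limma step was tested on simulated data for GNF-2-resistant against catalytic-resistant only, with the same spread for every gene. That does not cover the wider spread of the members or the contrasts with Clone 4 or vehicle.

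Values in every library are given for the 12 members with the widest log2 range (IRF9 and IFIT5 are among them through a value listed at 0), members called, and the 3 narrowest. Outside the members, IFNAR1, IFNAR2, JAK1, TYK2, the 10 genes most like the members and, per pathway list, those called and up to 4 with the widest range are named, apart from items that are not reported here. Other genes named (among them ISG15, STAT2, RSAD2, XAF1 and gene neighbours) were picked after their values were seen, as were the tests of Clone 4. The alternatives tried were a pseudocount of 0.1 or 5, dropping the filter or raising it to a mean of 5, median-ratio and quantile scaling, only genes above 0 in all libraries, no variance trend, a covariate, a block by population of origin (added after the values were seen) and leaving out each resistant library. Tables and figures used Python 3.11.15, numpy 2.4.6, pandas 2.3.3 and matplotlib 3.10.9.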

Additional observations from a re-analysis of the deposited data

Results flagged for a closer look

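Over the 4 clones, the 39 tested members and their mean were each checked for a clone far from the other 3. Dixon's ratio of the gap to the whole range was used, at its 95% critical value. Chance passes this in about 1 of 20 groups. Of these 40 items 2 passed, both of them members. IFITM1 had a ratio of 0.929, with Clone 1 (284 FPKM) far below Clones 2, 3 and 4 (676, 682 and 722). For CMPK2 the ratio was 0.895, with Clone 4 (165 FPKM) far above Clones 1, 2 and 3 (21.8, 21.0 and 26.2).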

How the results depend on the processing

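The count of 0 members called held under every alternative for GNF-2-resistant against catalytic-resistant, GNF-2-resistant against vehicle and catalytic-resistant against vehicle. For the clones against resistant populations it was 1 with the resistance group as covariate, and 0 to 1 leaving out 1 library. The 1 member called in Clone 4 became 0 with only genes above 0 in all libraries and with clone or population as covariate in all 3 contrasts, 0 without a variance trend against vehicle and against the GNF-2-resistant group, and 0 to 1 leaving out 1 library in each contrast. The limma adjusted p of CMPK2 ran from 0.0291 to 0.152 against vehicle, from 0.0299 to 0.164 against the GNF-2-resistant group and from 0.0231 to 0.186 against the catalytic-resistant group, and that of XAF1 in the clones from 0.0140 to 0.232. Between single libraries the count changed from 1 to 2 for members lower in the nilotinib population under median-ratio scaling and from 2 to 1 for members higher in Clone 2 at a mean FPKM of at least 5; all other counts and medians stayed within 1.5 times or the spread between libraries. Leaving out 1 library moved the members' median between -0.76 and 0.19, -0.64 and 0.35, 0.062 and 0.24, and -0.64 and 0.27 in the 4 contrasts without Clone 4, the highest without Clone 1 except in the third. Over all genes the calls ran from 0 to 79, against 11, for GNF-2-resistant against vehicle, 0 to 59, against 4, for catalytic-resistant against vehicle, 0 to 8, against 4, between the resistant groups and 13 to 1100, against 883, for the clones, and for Clone 4 from 0 to 148, against 21, 1 to 92, against 15, and 1 to 97, against 17, versus vehicle, the GNF-2-resistant and the catalytic-resistant group. No paired analysis was possible because the labels give no replicate numbers that pair libraries across groups; the population of origin as a block, chosen after seeing the data, gave 0 members called in the clones and 13 calls over all genes. With 1 library per condition and 4 residual degrees of freedom, small differences were not detectable.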
